A study of Mus musculus with 6 samples.

Results

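The linker histone H1 family comprised 7 genes here, H1f0, H1f1, H1f2, H1f3, H1f4, H1f5 and H1f10, of which 3 are among the 18193 genes with a probe set of their own on the array. Members were found by gene symbol among probe sets annotated to exactly 1 gene. That gave 5 probe sets for those 3 genes: 3 for H1f2, 1 for H1f4 and 1 for H1f10. H1f0, H1f1, H1f3 and H1f5 have no probe set named here and were not analysed here. The family was chosen by the heterozygous against wild-type difference of H1f2 on these same arrays, where H1f2 was already known to be lower, and then filled up by name. For that reason the difference between genotypes is described for its members and supports nothing.

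The samples were whole brains of male mice aged 2 months. In 3 of them 1 copy of the periphilin gene (Pphln1) was knocked out (labelled periphilin+/-), and 3 were C57BL/6 wild-type littermates. No other allele or treatment is given in the labels. Each brain was hybridised to its own Affymetrix array, so the 6 arrays are separate animals. One heterozygous array carries no number in the labels and is called heterozygous 1. The labels do not say which part of Pphln1 is disrupted. In RNA from whole brain, fewer cells of a type and less RNA per cell cannot be told apart.

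Linker histones bind the nucleosome where the DNA enters and leaves it, and help to fold the chromatin fibre. The core histones H2A, H2B, H3 and H4 form the nucleosome itself. H1f1 to H1f5 lie in the large histone cluster on chromosome 13 and are mostly transcribed in S phase, when dividing cells need new histones. Their main transcripts end in a stem-loop and not in a poly(A) tail, although polyadenylated forms of some, H1f2 among them, are made in cells that have left the cycle. H1f0, on chromosome 15 as is Pphln1, and H1f10, on chromosome 6, lie outside the cluster and do not depend on replication. The labelling of these arrays started from an oligo(dT) primer, which favours polyadenylated RNA.

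The promoters of the genes with a probe set are shown because they set the clustered members, H1f2 and H1f4, apart from H1f10. Each line gives the 150 bases before the annotated start (RefSeq, build GRCm38.p6), 5′ to 3′ on the strand of the gene. The stretch for H1f2 lies at chr13:23738657-23738806 on the plus strand, that for H1f4 at chr13:23622559-23622708 on the minus strand and that for H1f10 at chr6:87981483-87981632 on the minus strand. Capitals mark matches to 3 motifs searched on both strands: the H1 box AAACACA, the CCAAT box CCAAT and the TATA box TATANA, whose matches can overlap each other.
H1f2: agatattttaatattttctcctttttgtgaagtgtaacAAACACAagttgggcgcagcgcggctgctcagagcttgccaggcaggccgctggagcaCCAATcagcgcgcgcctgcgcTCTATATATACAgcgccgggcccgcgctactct
H1f4: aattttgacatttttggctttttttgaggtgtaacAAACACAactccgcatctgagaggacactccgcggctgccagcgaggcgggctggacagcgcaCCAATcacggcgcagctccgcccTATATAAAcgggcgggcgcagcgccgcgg
H1f10: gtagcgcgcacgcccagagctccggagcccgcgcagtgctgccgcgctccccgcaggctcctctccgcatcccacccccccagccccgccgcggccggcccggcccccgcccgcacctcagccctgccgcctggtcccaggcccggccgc

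Within 250 bases of the start, all 7 genes had an entry. The H1 box was present in 4 of the 7 (H1f2, H1f3, H1f4 and H1f5), against 6.25% of all 32851 promoter windows of that length. In H1f2 it began 112 bases before the start, and in the other 3 genes between 115 and 122 bases before it. The CCAAT box was present in 5 of the 7, which are the 5 genes of the cluster, against 33.8% of all windows. On the strand of the gene, the match nearest to the start began between 51 and 56 bases before it in each of the 5. The same 5 genes held a TATA box match, against 22.6% of all windows. No match to any of the 3 motifs was found in the windows of H1f0 and H1f10. Core histone promoters held the CCAAT box in 80.4% and the TATA box in 66.1% of 56 windows, but the H1 box in 7.14%. A match is a run of letters and does not show that a factor binds there.

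**Figure D1:**
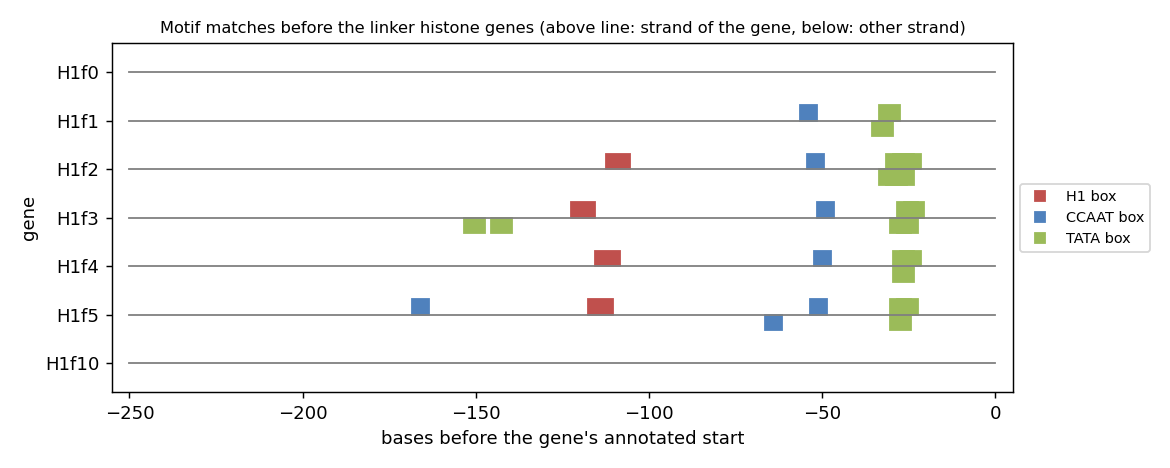
Motif matches in the 250 bases before the annotated start of each linker histone gene, with distance from the start in bases on the x axis and 1 line per gene; boxes above a line lie on the strand of the gene and boxes below on the other strand. The H1 box lies between 122 and 106 bases before the start in H1f2, H1f3, H1f4 and H1f5, the 5 clustered genes share a CCAAT box and a TATA box near the start, and H1f0 and H1f10 have no match.

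H1f2, also called H1.2 or H1c, was read by 2 bright probe sets and a dim one. The probe set 1416101_a_at measured 1250.0, 797.0 and 1132.6 in wild-type brains 1, 2 and 3, and 970.6, 489.7 and 773.3 in heterozygous brains 1, 2 and 3 (deposited intensity, linear). The genotypes overlapped at this probe set, since heterozygous 1 lay above wild type 2, and a heterozygous brain was the lower in 8 of the 9 pairs of 1 brain of each genotype. The mean was 744.5 ± 241.7 (SD, n = 3) in heterozygous and 1059.9 ± 235.1 (SD, n = 3) in wild-type brains. On the log2(intensity + 16) scale, heterozygous minus wild type came to -0.53 (SE 0.22), a fold of 0.69.

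The other bright H1f2 probe set, 1436994_a_at, measured 778.4, 549.7 and 504.6 in wild-type and 444.9, 330.9 and 334.3 in heterozygous brains. Here each heterozygous brain lay below each wild-type brain. The means were 370.0 ± 64.8 and 610.9 ± 146.8 (SD, n = 3 each), the log2 difference -0.69 (SE 0.16) and the fold 0.62. These are the values that drew attention to the family. Of the 27022 probe sets bright enough to be tested, 63 had a lower difference than 1436994_a_at and 171 a lower one than 1416101_a_at.

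The 2 bright probe sets of H1f2 agreed on their ends and differed in the middle. Wild type 1 was the highest brain and heterozygous 2 the lowest on both, although at 1436994_a_at heterozygous 2 and 3 were nearly level. Wild type 2 came before wild type 3 on 1436994_a_at but after it on 1416101_a_at. Wild type 2 lay below the mean of the 6 arrays on 1416101_a_at (-0.11 on the log2 scale) and above it on 1436994_a_at (0.22). The spread within genotypes was an SD of 0.42 (log2) at 1416101_a_at, larger than at 95.8% of tested probe sets, and 0.28 at 1436994_a_at, larger than at 83.2%. H1f2 thus varied more between brains of the same genotype than most tested probe sets. Both probe sets carry the suffix that the manufacturer gives to sets that read several transcripts of 1 gene, and the clustered H1 genes resemble each other in coding sequence. Whether signal of other members contributes was not tested.

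The third H1f2 probe set, 1438204_at, was dim. It measured 19.1, 23.0 and 9.30 in wild-type and 3.89, 9.23 and 12.1 in heterozygous brains, with a mean below the limit of 18.4 under which probe sets were left out of the fit. The genotypes overlapped there, and no difference was estimated.

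H1f10, also called H1x, is a linker histone whose expression does not follow replication. Its probe set 1436517_at measured 187.1, 189.1 and 175.3 in wild-type brains and 161.0, 135.1 and 108.6 in heterozygous brains. Every heterozygous brain lay below every wild-type brain. The 3 wild-type brains lay close together, with an SD of 7.43 against 26.2 in heterozygous brains. The means were 134.9 in heterozygous and 183.8 in wild-type brains (n = 3 each), the log2 difference was -0.42 (SE 0.14) and the fold 0.75. The order of the heterozygous brains differed from that of H1f2, with heterozygous 3 lowest at H1f10 and heterozygous 2 lowest at H1f2. Its SD within genotypes of 0.18 (log2) was larger than at 56.3% of tested probe sets.

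H1f4, also called H1.4 or H1e and like H1f2 a member of the cluster, was read by 1422398_at at the level of the dimmest probe sets. It measured 2.22, 0.60 and 7.09 in wild-type and 10.2, 16.9 and 7.22 in heterozygous brains. Each heterozygous brain was above each wild-type brain, by as little as 7.22 against 7.09, but all 6 values lay below the dim limit, so no difference was estimated and no direction is read from them. A transcript without a poly(A) tail would be poorly labelled in this protocol, so a dim value is not a measure of how much H1.4 protein or total transcript is present.

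**Figure D2:**
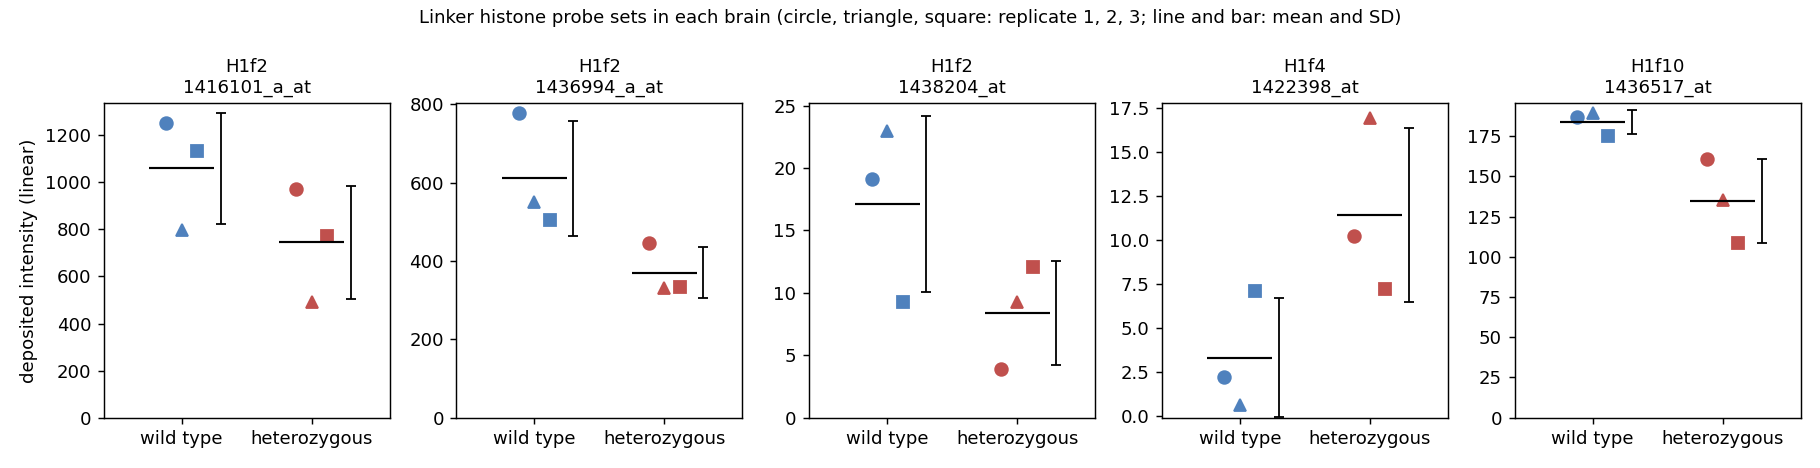
Deposited intensity (linear y axis, a separate scale in each panel) of the 5 linker histone probe sets in each of the 3 wild-type and 3 heterozygous brains; symbols mark the replicate, lines the mean and bars the SD. At H1f2 1436994_a_at and H1f10 1436517_at the heterozygous brains all lie below the wild-type brains, at H1f2 1416101_a_at the genotypes overlap, and 1438204_at and 1422398_at are dim.

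Over the family, 3 of 5 probe sets passed the filter on dim values, and all 3 had a log2 difference below 0, as did 47.7% of the 27022 probe sets tested. The genotypes did not overlap, with heterozygous brains lower, at 2 of the 3, against 4.81% of all tested. None of the 3 was called by limma at an adjusted p below 0.05, and 0.0148% of all tested probe sets were called. Without adjustment, limma's p lay below 0.05 for 3 of the 3, against 4.83% of all. Since the difference at H1f2 chose the family, nothing is read from these shares. With any 1 of the 6 arrays left out, the 3 differences stayed below 0. At 1416101_a_at the difference was -0.26 without heterozygous 2, and at H1f10 it was -0.29 without heterozygous 3 (-0.42 with all arrays).

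The knocked-out gene itself was read by 2 probe sets. Pphln1 measured 319.8 ± 44.5 in heterozygous and 299.7 ± 12.6 in wild-type brains at 1434822_at (SD, n = 3 each), a log2 difference of 0.08 (SE 0.11). At 1435766_at it measured 37.2 ± 6.91 against 52.3 ± 9.50 (SD, n = 3 each), a log2 difference of -0.36 (SE 0.18). The genotypes overlapped at 1434822_at but not at 1435766_at, with 30.6 to 44.4 in heterozygous and 46.3 to 63.2 in wild-type brains. Such a lower, not overlapping result held for 4.81% of all tested probe sets. Neither probe set was called, and neither checks the labels if it reads a stretch of Pphln1 that the knockout leaves intact. Heterozygous 1 was the highest of the 6 arrays at 1434822_at (352.8) and the lowest at 1435766_at (30.6). It was also the highest heterozygous brain at both bright H1f2 probe sets and at H1f10. The part of the Pphln1 level in the histone values was not tested.

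Core histone transcripts were read by 7 kept genes with a probe set annotated to 1 gene. The probe sets of H2bc21 and H2aw end in _s_at and those of H2ac19 and H2bc22 in _x_at. Such suffixes are given to sets that can read more than 1 gene. Whether signal of other histone genes contributes was not tested. Of the 7 genes, 5 were lower and 2 higher, with a median log2 difference of -0.17. The median over all 13024 genes was 0.007. None was called by limma, against 0.0148% of all tested probe sets. An unadjusted limma p below 0.05 was found for 1 of the 7, against 4.83% of all tested. H2bc21, an H2B gene, lay at -0.29 (SE 0.13), with 95.7 to 103.1 in heterozygous and 113.3 to 145.6 in wild-type brains. H2bc18 lay at -0.23 (SE 0.19), H2bc22 at 0.03 (SE 0.16) and the H3 gene H3c7 at 0.23 (SE 0.22). The median was -0.27 without heterozygous 1 and -0.11 without heterozygous 2 or without wild type 1. The summed intensity of the 7 was 966.9 to 1091.1 in heterozygous and 1126.5 to 1239.4 in wild-type brains, which do not overlap. H2ac19 and H2aw contributed 397.3 to 510.7 and 324.8 to 464.6 to that sum. Gene by gene, the genotypes did not overlap at 2 of the 7, with heterozygous brains lower, against 4.81% of all tested probe sets.

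Most core histone genes are so alike that a probe set reads several of them. A further 14 kept probe sets were annotated to several core histone genes and to no other gene, a group formed after the annotation had been read. Of these, 13 were lower in heterozygous brains and 1 higher, with a median log2 difference of -0.27, and none was called (lowest limma adjusted p = 0.956), with 5 of the 14 at an unadjusted p below 0.05. Of all tested probe sets, 47.7% were lower, 4.83% had such a p and 0.0148% were called. The genotypes overlapped at each of the 14, and so did the summed intensity, at 3131.4 to 4638.1 in heterozygous and 4441.9 to 5206.6 in wild-type brains. The count was 12 to 14 of 14 with single arrays left out. The median was -0.42 without heterozygous 1 and -0.44 without wild type 2, but -0.23 without heterozygous 2 and -0.25 without wild type 1. The 14 share genes and sequence and are not independent of each other.

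The 4 probe sets for H4 genes, between -1.35 and -0.87, and 1 of the 2 for H2A genes, at -0.90, lay furthest from 0 among the 14. The H4 probe set 1422948_s_at measured 630.6, 423.3 and 524.4 in wild-type brains and 725.9, 150.8 and 130.5 in heterozygous brains. Heterozygous 1 was thus the highest of all brains there, and heterozygous 2 and 3 were the lowest. At 1424854_at the values were 295.1, 161.1 and 132.7 in wild-type and 155.5, 48.3 and 29.0 in heterozygous brains, again with heterozygous 1 among the wild-type values. Summed over the 4, heterozygous 1 reached 1023.2, heterozygous 2 and 3 reached 235.9 and 199.9, and the wild-type brains 694.2 to 1093.3. The median of the 4 was -0.96. With single arrays left out it ran from -1.56 without heterozygous 1 to -0.69 without heterozygous 2. That H2A probe set, 1438009_at, ran from 485.2 to 697.6 in wild-type brains and measured 519.4, 292.4 and 190.7 in heterozygous brains, while the other, 1438815_at, lay at -0.11. The 4 H3 probe sets lay between -0.27 and -0.22, and the 4 H2B probe sets between -0.35 and 0.02.

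**Figure D3:**
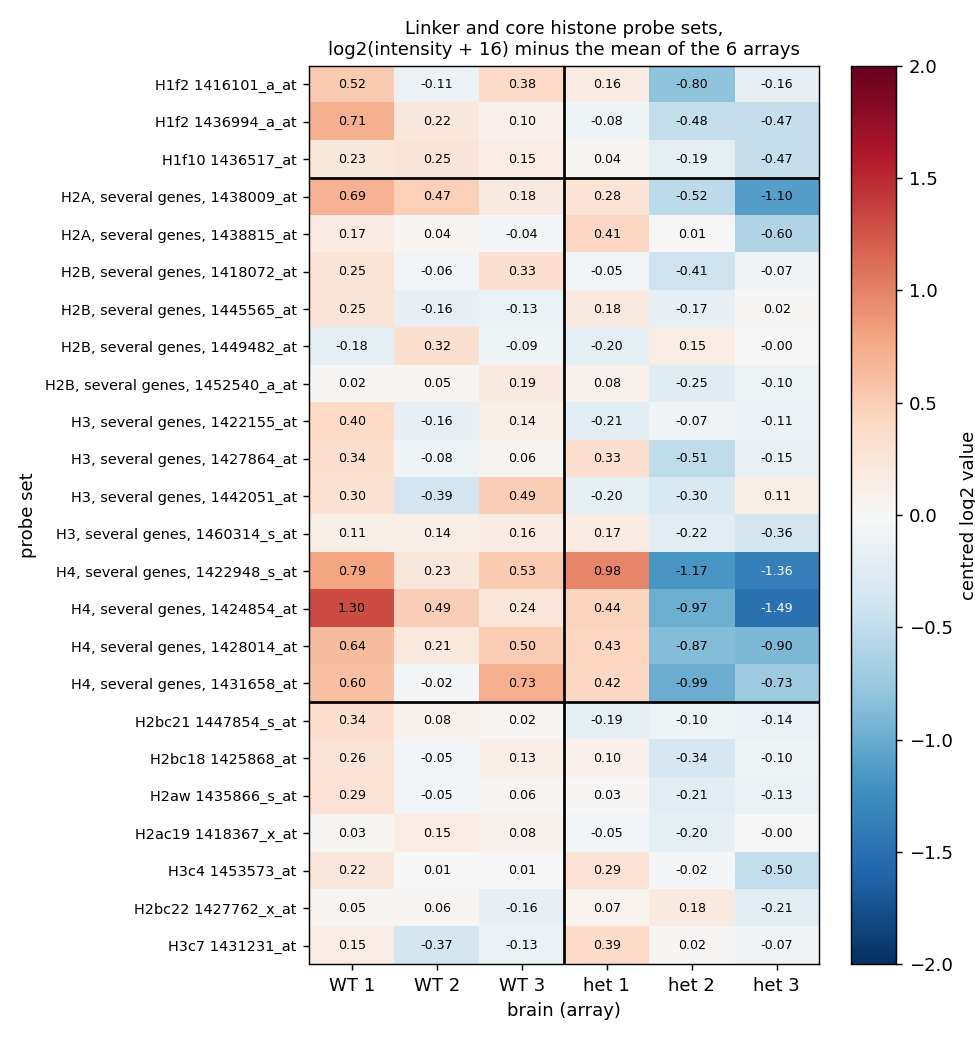
Centred log2 values, log2(intensity + 16) minus the mean of the 6 arrays, in each brain (columns). Rows are the 3 kept linker histone probe sets, the 14 shared by several core histone genes and the 7 annotated to 1 core histone gene each. Red is above and blue below the mean. At the 4 H4 rows heterozygous 1 is above the mean with the wild-type brains, apart from wild type 2 at 1431658_at (-0.02), while heterozygous 2 and 3 lie between -0.73 and -1.49.

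The histone variants grouped here as replication-independent had a median log2 difference of 0.01, with 4 of 9 genes lower. None was called by limma and 1 had an unadjusted p below 0.05. Over all tested probe sets, 47.7% were lower, 4.83% had such a p and 0.0148% were called. Macroh2a3 lay at -0.32 (SE 0.19) and H2ax, the variant that is phosphorylated at DNA breaks, at -0.19 (SE 0.16). The centromeric H3 variant gene Cenpa lay at 0.43 (SE 0.19), with 23.7 to 26.4 in heterozygous and 10.2 to 16.7 in wild-type brains, and H3f3a at 0.22 (SE 0.33). The genotypes did not overlap at 2 of the 9 genes, both higher in heterozygous brains. That held, in either direction, for 10.2% of all tested probe sets. Linker histones of germ cells, H1f6, H1f7, H1f8 and H1f9, all stayed below the dim limit.

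Chaperones that carry histones and enzymes that modify H1 were evenly divided, with 9 of 19 genes lower, none called by limma, 1 at an unadjusted p below 0.05 and a median of 0.01. The shares over all tested probe sets were 47.7% lower, 0.0148% called and 4.83% at such a p. Atrx, a chromatin remodeller, lay at -0.22 (SE 0.09), Nap1l5 at -0.14 (SE 0.11), Ptms, the gene of parathymosin, at 0.13 (SE 0.09) and the H3.3 chaperone gene Hira at 0.38 (SE 0.27). Of 8 genes for proteins that share linker DNA with H1, 5 were lower and none was called by limma or had an unadjusted p below 0.05 (median -0.03). Hmgn5 lay at -0.15 (SE 0.11), Hmgn3 at -0.10 (SE 0.09), the insulator protein gene Ctcf at 0.09 (SE 0.09) and Hmgb2 at 0.25 (SE 0.27). Among 20 genes for the transcription and processing of histone RNA, 8 were lower and likewise none was called or had such a p (median 0.02). Hinfp, a regulator of H4 genes, lay at -0.26 (SE 0.17), and Eri1, a nuclease that trims the histone stem-loop, at -0.21 (SE 0.14). E2f1 lay at 0.32 (SE 0.21) and Sympk, a scaffold of the 3′ processing complex, at 0.39 (SE 0.22). Non-histone genes inside the chromosome 13 cluster, 4 of them bright enough, ran from Prss16 at -0.33 (SE 0.23) and Zfp322a at -0.10 (SE 0.15) to Abt1 at -0.03 (SE 0.12) and Hfe at 0.12 (SE 0.17), and none was called.

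**Figure D4:**
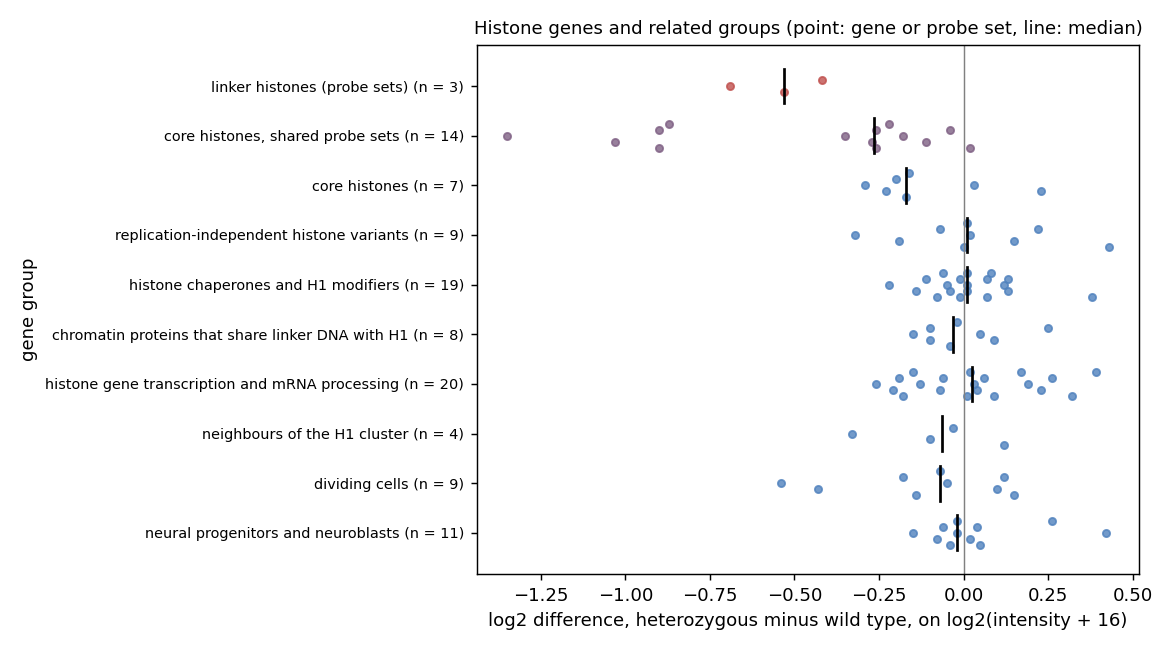
Log2 difference, heterozygous minus wild type, on log2(intensity + 16) (x axis), for the 3 kept linker histone probe sets, the 14 shared core histone probe sets and the genes of 8 related groups (1 point each, line at the median). Linker histones lie between -0.69 and -0.42, shared core histone probe sets have a median of -0.27, and the histone variants, chaperones, linker DNA proteins and processing genes have medians from -0.03 to 0.02.

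Replication histones mark dividing cells, so markers of such cells were read beside them. Of 15 with a probe set, 9 were kept and 6 were dim, among them the defining markers Mki67, Top2a and Cdk1. The summed intensity of the 9 was 1509.8 to 1549.8 in heterozygous and 1326.5 to 1628.9 in wild-type brains, which overlap, and Pcna alone measured 984.5 to 1244.2. In sign, 6 of the 9 were lower, with a median of -0.07. The replication helicase genes Mcm2 and Mcm3 lay at -0.54 (SE 0.22) and -0.43 (SE 0.19), Ccnb2 at 0.12 (SE 0.18) and Ccna2 at 0.15 (SE 0.20). None of the 9 was called by limma, with 2 at an unadjusted p below 0.05. Over all tested probe sets, 47.7% were lower, 4.83% had such a p and 0.0148% were called. Of the 6 dim markers, Top2a was lower in each heterozygous than in each wild-type brain (7.91 to 8.72 against 14.2 to 21.9), Ube2c was higher in each (14.7 to 17.1 against 10.4 to 13.2), and the other 4 overlapped. Among tested probe sets, which leave out such dim ones, 10.2% did not overlap in either direction. Of 11 progenitor and neuroblast genes 6 were lower, with a median of -0.02 and no call. They summed to 8469.4 to 9327.4 in heterozygous and 8359.9 to 8999.3 in wild-type brains, of which Stmn1 alone measured 5077.6 to 6286.2. Their differences ran from Dlx1 at -0.15 (SE 0.11) and Sp8 at -0.08 (SE 0.14) to Nes at 0.26 (SE 0.21) and Sox11 at 0.42 (SE 0.34). The part of dividing cells in the histone values was not tested.

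The neuron markers checked the tissue: all 10 were kept, with summed intensities of 32358.2 to 37103.5 in heterozygous and 33011.2 to 34466.4 in wild-type brains. Slc17a7 lay at -0.27 (SE 0.09), Gad1 at -0.12 (SE 0.09), Eno2 at 0.10 (SE 0.10) and Stmn2 at 0.12 (SE 0.09). Slc17a7 measured 500.9 to 554.5 in heterozygous and 620.3 to 673.9 in wild-type brains, which do not overlap. That held, with heterozygous brains lower, for 4.81% of all tested probe sets. Slc17a7 was the 1 neuron gene of 10 with an unadjusted limma p below 0.05, against 4.83% of all tested probe sets. No neuron gene was called, against 0.0148% of all tested. Markers of astrocytes, oligodendrocytes, microglia, vessels, blood, choroid plexus and meninges had medians between -0.03 and 0.05, summed intensities that overlapped between the genotypes, and no call. The sums are led by the brightest genes of each list, and single genes lay between -0.40 (astrocytes) and 0.33 (vessels). The genotypes did not overlap at 1 choroid plexus gene, higher in heterozygous brains, as held in either direction for 10.2% of all tested probe sets. Of the genes in these lists, 1 of 8 astrocyte and 1 of 7 choroid plexus genes had an unadjusted limma p below 0.05. The shares of 4.83% at such a p and 0.0148% called over all tested probe sets apply here too. Pituitary genes had a median of -1.44 over 6 genes, none of them called, and of -0.07 without wild type 1 to -2.40 without wild type 3. They summed to 21234.1 in wild type 1, the brain highest at both bright H1f2 probe sets, to 6709.4 in heterozygous 3, and to 185.2 to 857.1 in the other brains. Without wild type 1 the difference at 1436994_a_at was -0.50 and that at 1416101_a_at was -0.40. The part of pituitary tissue in the histone values was not tested.

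The ratio of 3′ to 5′ signal for Gapdh was 0.75, 0.75 and 0.76 in heterozygous and 0.71, 0.73 and 0.73 in wild-type brains, which do not overlap. For beta-actin it was 1.6 to 1.72 in heterozygous and 1.64 to 1.70 in wild-type brains, which do. The part of these ratios in the histone values was not tested. The mean signal of the 18S ribosomal RNA, which like most replication histone transcripts has no poly(A) tail, was 178.9 in wild type 2, 94.4 and 100.4 in wild type 1 and 3, 80.3 in heterozygous 1, and 114.8 and 114.3 in heterozygous 2 and 3. That signal was also fitted as a covariate, added after the data had been seen. The differences were then -0.71 at 1416101_a_at and -0.78 at 1436994_a_at (both H1f2) and -0.45 at H1f10, and none was called. This covariate was not planned, and the part of the 18S signal in the histone values was not tested.

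The genes with the profile most like that of H1f2 over the 6 arrays were found by the mean absolute difference of centred log2 values from 1416101_a_at. They were Irf3 (0.082), Clgn (0.083), Fam214a (0.086), Ttc21b (0.090) and Ccl17 (0.093). The probe set of Irf3 measured 54.8, 38.7 and 61.2 in wild-type and 45.9, 18.8 and 36.1 in heterozygous brains. The mean intensities of the 5 in each genotype ran from 18.4 to 65.0, close to the dim limit. The other bright H1f2 probe set was at a distance of 0.279 and H1f10 at 0.323, and 7.49% and 22.5% of the 23470 other 1-gene probe sets were nearer.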

How the data were processed

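The values are the probe-set intensities deposited by the authors, 1 linear value per probe set and array. Per the labels, RNA of snap-frozen brains was labelled through an oligo(dT) primer; which software summarised the probes is not stated in these sources. The mean without the lowest and highest 2% of values was 150.0 on each array, which shows a scaling before deposit. Medians ran from 31.2 to 34.5, and log2 values of array pairs correlated at 0.978 to 0.985.

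Of 45101 probe sets, 64 controls were set apart. The platform annotation gave 1 gene for 34945 of the rest, several for 932 and none here for 9160, with symbols updated through RefSeq (GRCm38.p6). Values were taken as log2(intensity + 16), which understates changes of dim probe sets. Probe sets with a mean at or below the 40th percentile (18.4) were removed, leaving 27022. Genotypes were compared with limma 3.58.1 (R 4.3.3; lmFit, eBayes with trend, no covariate, two-sided), adjusted by Benjamini-Hochberg over all 27022, with a call at an adjusted p below 0.05. The fit was tested on simulated data. A gene in a list was represented by its brightest kept probe set. List counts are thus of genes, while the shares given beside them are of all 27022 tested probe sets. Over the 13024 genes with a kept probe set, 6255 were lower, 571 had an unadjusted limma p below 0.05 and 1 was called.

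Named were all linker histone and Pphln1 probe sets, the 2 highest and 2 lowest genes of each list, and the 5 profiles nearest to the brightest H1f2 probe set. For the glial, vessel, blood, choroid plexus, meningeal and pituitary lists only summaries are printed. Single core histone probe sets, Top2a, Ube2c and the dim markers were named after their values were seen. The members and lists were chosen with earlier results of these data known. The deviations of same-numbered brains from their group means correlated at 0.082, 0.202 and -0.018. Differently numbered brains were not compared, so these values do not settle whether the numbers pair the brains. Only 3 arrays per genotype limit the precision.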

Additional observations from a re-analysis of the deposited data

How the results depend on the processing

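The 3 kept linker histone differences stayed below 0 and within 1 SD of their value under each of 10 other settings with all arrays (median centring, quantile normalization, pseudocounts of 64 and 1, 2 other dim filters, 2 other variance models, array weights and a replicate block) and under the 18S covariate. Leaving out single arrays gave -0.74 to -0.26 at 1416101_a_at, -0.82 to -0.50 at 1436994_a_at and -0.54 to -0.29 at H1f10. None of the 3 was called under these settings, except that the replicate block called 1 of them, 1436994_a_at (limma adjusted p = 0.0491, from 0.956 without the block). The labels name no pairing by replicate number, and the number of heterozygous 1 was given here. The block was therefore not taken as the main design, and whether the numbers mark a shared batch was not tested. Over all probe sets there were 4 calls, 5 with the replicate block, 1 without the dim filter, 1 with eBayes without trend, 11 with the 18S covariate and 1 to 14 with single arrays left out, the most without heterozygous 1; the causes were not tested. The medians of the 17 lists kept within 1 SD in all but 7 values. One of these was -0.03 for the chaperones under median centring. The others came with single arrays left out: 0.07 for the processing genes (all such fits 0.01 to 0.07), 0.01 and 0.01 for dividing cells (-0.11 to 0.01), -0.08 and 0.04 for progenitors (-0.08 to 0.04) and -0.10 for microglia (-0.10 to 0.04). The blood list held no gene under the stricter dim filter. No difference was estimated for probe sets at or below the dim limit, that of H1f4 among them.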
